A study of Mus musculus with 7 samples.

Results

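The 34 genes described here encode enzymes of glucose breakdown. They comprise 8 genes from glucose to the triose phosphates, 6 from there to pyruvate, 2 lactate dehydrogenase subunits, 5 enzymes that take up pyruvate and 13 enzymes of the citrate cycle or of malate exchange with it. They were chosen by gene symbol from the 24062 symbols in the count files, and every symbol was present. RNA came from ERα-ZsGreen neurons of the medial preoptic area (MPA), a region of the hypothalamus that regulates body temperature and torpor, after whole-cell recordings in slices whose bath was warmed by 5 °C, from 25 °C to 30 °C. In these transgenic mice, females of 10 to 14 weeks, the fluorescent protein ZsGreen reports ERα-expressing cells. The contents of 2 neurons with a like response were drawn into the pipette and pooled as 1 sample. There were 4 temperature-responsive samples (TR1 to TR4), whose neurons fired faster at the higher temperature, and 3 non-responsive samples (NR1 to NR3). Neurons of both groups were warmed in the same way, with no unwarmed neurons to compare, so that a difference present before the warming and one that arose under it cannot be told apart. Nothing in the labels says that the samples of a group came from separate mice, and p-values then measure only the spread between these samples.

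Glycolysis splits glucose in the cytosol into pyruvate with a small yield of ATP and NADH. Lactate dehydrogenase converts pyruvate and lactate into each other. The pyruvate dehydrogenase complex turns pyruvate into acetyl-CoA in mitochondria, and the citrate cycle oxidizes it and passes electrons to the respiratory chain. Neurons depend on oxidative metabolism to restore the ion gradients that firing runs down, and glia supply part of their lactate.

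Totals lay between 1914497 and 2814360 counts in temperature-responsive and between 3309361 and 5125280 counts in non-responsive samples, and did not overlap. More genes had at least 1 count in temperature-responsive samples (19852 to 21177) than in non-responsive samples (17818 to 19820). Levels are given below as CPM, counts per 1000000 counts after TMM scaling between samples, and a floor of 3 counts corresponded to 0.564 to 1.62 CPM. Such floors cover counting error only. The neuronal genes Snap25, Syt1, Rbfox3, Tubb3 and Map2 together reached 2378 to 2798 CPM in temperature-responsive and 2189 to 2480 CPM in non-responsive samples, and none was at 0. Esr1, the gene of ERα, had only 10 to 27 counts per sample. Although the mice were female, the Y-linked gene Ddx3y had 684 to 1150 counts and the female transcript Xist 2 to 14 counts per sample. This held for all samples of both groups, so no comparison without such samples could be made. Ddx3y lay at 316 to 407 CPM in temperature-responsive and 210 to 244 CPM in non-responsive samples, without overlap. It passed the test below as higher (log2 fold change 0.66, edgeR adjusted p = 0.000196). The cause of this difference was not tested. Transcripts of other cells were present in every sample. Summed over 5 genes, oligodendrocyte markers lay at 2776 to 3773 CPM in temperature-responsive and 2355 to 2978 CPM in non-responsive samples, and 6 astrocyte markers at 1780 to 1961 CPM and 1545 to 1775 CPM. Microglial markers summed to 374 to 446 CPM and 421 to 433 CPM. Endothelial markers summed to 62.9 to 190 CPM in temperature-responsive samples, above the 11.8 to 39.8 CPM of non-responsive samples, and 4 of the 5 passed the test below as higher. Of the other markers, 2 of 6 astrocyte genes passed as higher and 1 as lower, 2 of 5 oligodendrocyte genes as higher and 1 as lower, 1 of 5 microglial genes in each direction, and 1 of 5 neuronal genes as higher and 2 as lower. Among neurons, the GABAergic markers Gad1, Gad2 and Slc32a1 summed to 873 to 1398 CPM in temperature-responsive and 775 to 843 CPM in non-responsive samples, without overlap, and 1 of the 3, Gad1, passed as higher. The 3 glutamatergic markers summed to 395 to 580 CPM and 519 to 607 CPM, with overlap, and 0 of them passed. Fewer cells of a type and less RNA per cell cannot be told apart in such samples. The part of these other cells and of the kind of neuron in the results below was not tested.

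For 4 enzymes of the middle of glycolysis, the counts were few or absent in both groups. Eno1 (enolase 1) had 0 counts in all 7 samples, and Gapdh, whose enzyme makes the first NADH of the pathway, had 5 to 49 counts. Pgam1 (phosphoglycerate mutase) had 11 to 31 counts and Pgk1 (phosphoglycerate kinase) 58 to 81. Aldoa, the aldolase a few steps earlier, had 686 to 1571 counts. These 4 genes share the most sequence with other genes. Of all windows of 50 bases in the longest coding transcript, 82.5% of those of Gapdh, 72.2% of Eno1, 68.0% of Pgk1 and 41.5% of Pgam1 also occur in transcripts of another gene in GENCODE M21, among them the pseudogenes Gm7336 for Gapdh and Gm5537 for Pgk1, and the copies Eno1b and Pgam1-ps2. Eno1b itself had 2 to 5 counts per sample. The relation was not strict. Ldhb shares 27.0% of its windows, with Gm5514, and had 386 to 1035 counts, whereas Hk2 shares none and had 13 to 29. Reads that match several genes may be left uncounted, and whether this set the levels of Gapdh, Eno1, Pgk1 and Pgam1 was not tested. Their levels are uncertain for that reason.

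**Figure D1:**
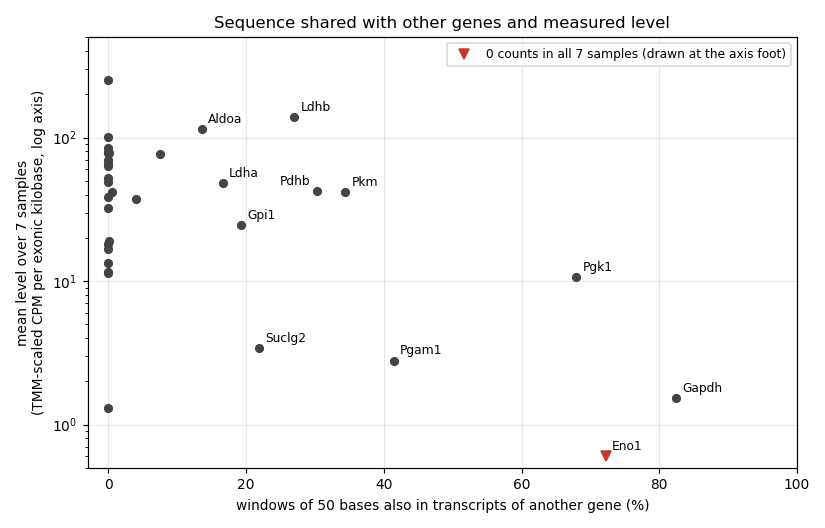
Mean level over the 7 samples (TMM-scaled CPM per exonic kilobase, log axis) of the 34 enzyme genes against the share of their 50-base windows found in transcripts of another gene (%), with 1 point per gene. The 4 genes with over 40% of their windows shared lie at or below 10.6 CPM per kilobase, and Eno1, at 0 counts, is drawn at the foot of the axis.

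Per exonic kilobase, the scale on which genes can be compared, the highest mean level over the 7 samples was that of Mdh1, the cytosolic malate dehydrogenase, at 251 CPM per kilobase. It was followed by Ldhb (138), Aldoa (115) and Sucla2 (101), a subunit of succinyl-CoA synthetase. The lowest levels other than that of Eno1 were those of Hk2 (1.31 CPM per kilobase), Gapdh (1.53), Pgam1 (2.79) and Suclg2 (3.39). The remaining 25 genes lay between 10.6 and 84.6 CPM per kilobase.

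**Figure D2:**
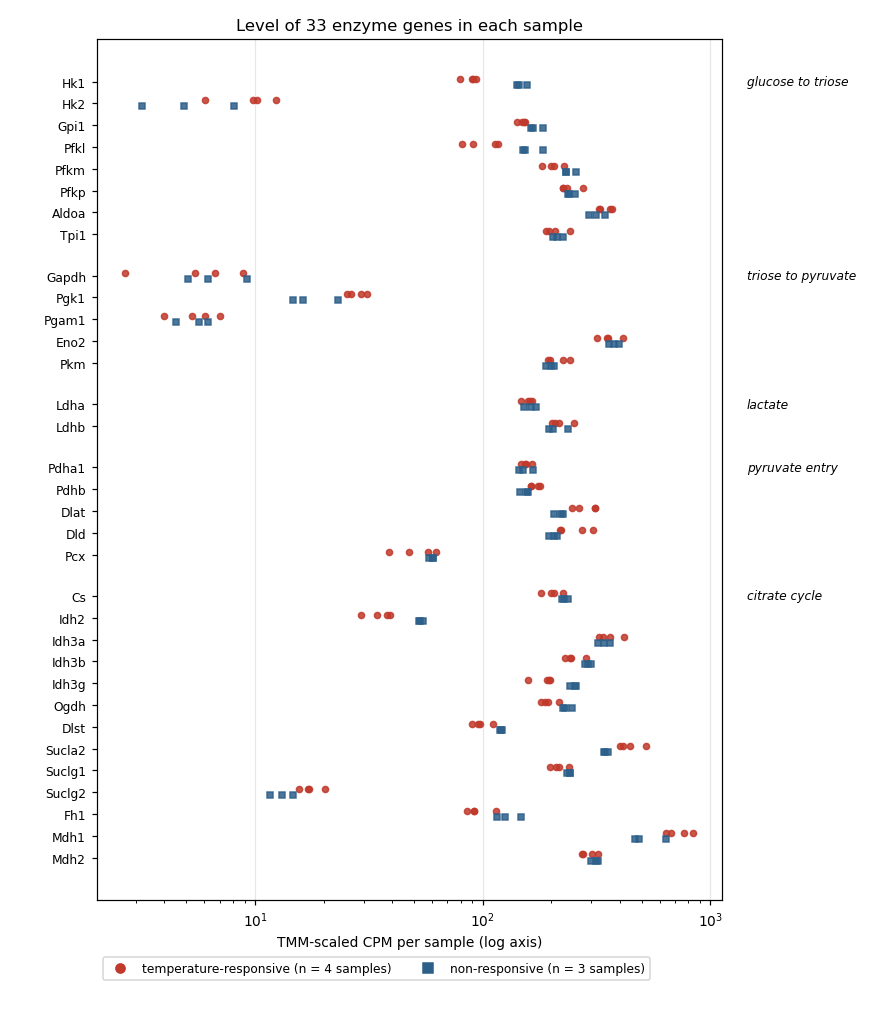
TMM-scaled CPM (log axis) of the 33 enzyme genes with counts, by pathway step, with 1 point per sample (circles, 4 temperature-responsive samples; squares, 3 non-responsive samples). For Hk1, Pfkl, Idh2 and Idh3g the circles lie to the left of the squares, and for Dlat and Sucla2 to the right.

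Counts were compared between the groups with edgeR's quasi-likelihood test over the 14407 genes that reached 10 counts in 3 samples or more, and p-values were adjusted over all of them (Benjamini-Hochberg, threshold 0.05). Eno1 was not tested. Of the 33 enzyme genes tested, 12 passed, 5 of them higher and 7 lower in temperature-responsive samples. This is 36.4%, where 30.03% of all genes tested passed (15.1% higher and 14.9% lower). The share of enzyme genes that changed is thus not read as particular to them. Their median log2 fold change was -0.04, that of all genes tested 0.01. Hk1 and Pfkl, at the entry of glycolysis, fell, as did Idh2, Idh3g, Ogdh, Dlst and Fh1 of the citrate cycle, while Pgk1, the pyruvate dehydrogenase subunits Dlat and Dld, Sucla2 and Mdh1 rose. Calls in both directions thus fell within the citrate cycle, and whether direction differed by step was not tested. For 16 of the 33 genes (48.5%), 7 higher and 9 lower, the levels of the groups were fully apart, against 35.4% of all genes tested (17.2% higher and 18.2% lower). Of the 12 calls, 6 were made again with each sample left out in turn, those of Hk1, Pfkl, Dlat, Idh2, Idh3g and Sucla2. Without NR2 only these 6 remained, and 21.2% of all genes tested passed. The split of the calls moved with the scaling, from 5 higher and 7 lower to 4 and 11 with library size only (31.5% of all genes, 12.9% higher and 18.6% lower) and 5 and 5 with upper quartile scaling (29.4% of all genes, 18.3% higher and 11.2% lower). Over all genes the share of calls that were higher moved from 50.3% to 40.8% and 62.1% under the same scalings. When the edgeR fit also held the count of detected genes as a covariate, 0 of the 33 passed and 4 had an unadjusted p under 0.05, where 0.00694% of all genes tested passed. That count did not overlap between the groups, so this fit could not part it from the group. On the log2 scale Hk1 was then at -0.62 (SE 0.166) and Idh2 at -0.51 (SE 0.234). Pgk1 was at 0.38 (SE 0.320) and Fh1 at -0.24 (SE 0.184), and 6 of the 33 genes changed sign.

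**Figure D3:**
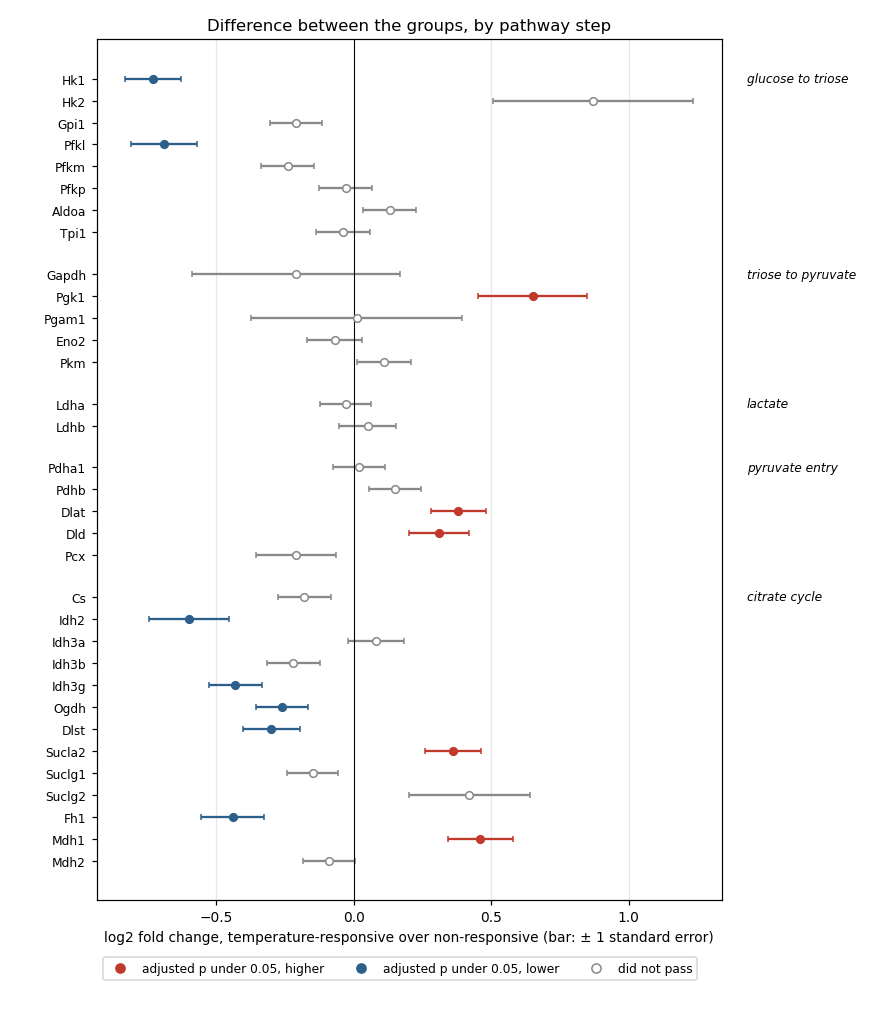
Log2 fold change (temperature-responsive over non-responsive) with its standard error for the 33 enzyme genes tested, by pathway step. Filled points passed the adjusted p threshold in edgeR, 5 higher and 7 lower, and open points did not pass.

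The 6 genes whose calls were made again in every fit that left out a sample are on different chromosomes, except for Hk1 and Pfkl, which both lie on chromosome 10. Their promoters are shown because these calls did not depend on any 1 sample. The lines give the 120 bases before the first transcription start that RefSeq lists, 5′ to 3′ on the strand of the gene (GRCm38.p6). This start is also where the gene begins in GENCODE M21 for Hk1, Idh3g and Dlat, and lies 42 bases inside it for Idh2, 276 bases for Pfkl and 27467 bases for Sucla2, where GENCODE lists a transcript that starts earlier. For Hk1, 2 starts are listed, and for each of the others 1. Only the first was used, here and in the search below, and which start of Hk1 these neurons use was not tested. The lines show the letters GGGCGG or their complement CCGCCC, the GC box, in capitals.
Hk1 (chr10:62379909-62380028, minus strand): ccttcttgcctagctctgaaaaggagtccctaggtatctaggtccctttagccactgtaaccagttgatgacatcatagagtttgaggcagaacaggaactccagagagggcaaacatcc
Pfkl (chr10:78009808-78009927, minus strand): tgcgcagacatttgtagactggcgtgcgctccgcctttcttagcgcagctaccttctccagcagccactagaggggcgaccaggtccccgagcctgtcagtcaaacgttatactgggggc
Idh2 (chr7:80115351-80115470, minus strand): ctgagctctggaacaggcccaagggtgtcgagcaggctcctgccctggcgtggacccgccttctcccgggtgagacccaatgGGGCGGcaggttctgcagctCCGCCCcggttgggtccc
Idh3g (chrX:73786898-73787017, minus strand): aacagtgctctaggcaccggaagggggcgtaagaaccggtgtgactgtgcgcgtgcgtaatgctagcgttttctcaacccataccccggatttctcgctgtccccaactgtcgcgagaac
Dlat (chr9:50659781-50659900, minus strand): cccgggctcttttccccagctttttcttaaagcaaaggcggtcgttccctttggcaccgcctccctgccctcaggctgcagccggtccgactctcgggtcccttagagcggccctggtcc
Sucla2 (chr14:73552666-73552785, plus strand): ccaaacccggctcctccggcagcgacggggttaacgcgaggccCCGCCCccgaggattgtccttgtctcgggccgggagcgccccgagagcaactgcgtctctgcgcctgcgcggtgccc
The first 4 of these genes fell and the last 2 rose. Over the 250 bases before the start, on both strands, the GC box was found in 18 of 33 enzyme genes (54.5%) and in 32.9% of 27025 promoters of all genes. These 33 include Eno1, which was not tested, and leave out Idh3a, for which no promoter sequence was available. The promoters of all genes were not limited to the genes tested here. Shares here and below thus compare unlike sets and are not read as particular to the enzymes. The GC box was found before 4 of the 5 genes that rose and 3 of the 7 that fell. The letters ACGTG, the core of the hypoxia response element, were found before 10 of the 33 genes (30.3%, against 16.6% of all promoters), 2 of the 5 that rose and 2 of the 7 that fell. The TATA box, TATAAA, was found before Eno2 only (13.0% of all promoters), and AAGGTCA, the half-site of estrogen-related receptors, before Eno1 only (4.05%). The core bound by nuclear respiratory factor 1 was found before none (0.781%). A match describes the letters and does not show that a factor binds there.

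At the entry of glycolysis, the predominant hexokinase of brain was lower in temperature-responsive samples. Hk1 encodes hexokinase 1, which phosphorylates glucose at the outer face of mitochondria. Its gene spans bases 62268855 to 62379908 of chromosome 10 (mm10, as all positions below). Its level was 90.1, 79.7, 91.1 and 93.8 CPM in TR1 to TR4 and 144, 142 and 157 CPM in NR1 to NR3. The highest temperature-responsive sample thus lay far below the lowest non-responsive sample. On the log2 scale the difference was -0.73 (standard error, SE, 0.101; edgeR adjusted p = 6.59e-05), the largest fall among the 33 genes in this fit, with means of 88.7 ± 6.20 CPM (SD, n = 4) and 148 ± 8.02 CPM (SD, n = 3). Hk2, the other hexokinase listed, had 6.04, 12.4, 9.80 and 10.2 CPM in TR1 to TR4 and 8.09, 4.89 and 3.20 CPM in NR1 to NR3. These groups overlapped through TR1 and NR1, and the log2 fold change of 0.87 (SE 0.364) did not pass (edgeR adjusted p = 0.0734). It passed without TR1 (1.02, edgeR adjusted p = 0.0406) or without NR1 (1.23, edgeR adjusted p = 0.0202). Within a sample, Hk1 held 91.3, 81.8, 86.7 and 86.6% of the summed Hk1 and Hk2 counts per kilobase in TR1 to TR4 and 92.6, 95.3 and 97.2% in NR1 to NR3. This share, which needs no scaling between samples, was lower in every temperature-responsive sample than in every non-responsive sample. It differed by -8.43 percentage points between the means. The gap between TR1 and NR1 was narrow, and rested on only 13 and 27 counts of Hk2.

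Of the 3 phosphofructokinase subunits, which make up the main control point of glycolysis, only the liver-type subunit passed the test. Pfkl lies on chromosome 10 from 77986947 to 78010083, and had 80.8, 90.4, 117 and 113 CPM in TR1 to TR4 and 151, 154 and 185 CPM in NR1 to NR3. Its groups did not overlap, and the fold change was -0.69 on the log2 scale (SE 0.119, edgeR adjusted p = 0.000299). Pfkm, the muscle-type subunit, had 228, 199, 183 and 205 CPM in TR1 to TR4 and 233, 232 and 256 CPM in NR1 to NR3, without overlap but with a narrow gap. Its log2 fold change of -0.24 (edgeR adjusted p = 0.0609) did not pass, but passed without TR1 (-0.31, edgeR adjusted p = 0.0182) when samples were left out in turn, and also with library size only (edgeR adjusted p = 0.0123). Pfkp, the platelet-type subunit, had 225 to 275 CPM in temperature-responsive and 238 to 254 CPM in non-responsive samples, which overlapped. The make-up of the enzyme's transcripts also differed between the groups. Pfkm held the most per kilobase in both (64.9 ± 2.64%, SD, n = 4, and 62.8 ± 0.586%, SD, n = 3), with overlap. The share of Pfkl was 16.1 ± 3.38% (SD, n = 4) against 21.3 ± 1.03% (SD, n = 3), and that of Pfkp 19.0 ± 1.11% (SD, n = 4) against 15.9 ± 0.488% (SD, n = 3). Neither overlapped, and they went in opposite directions. The 3 shares make up a whole, however, so that a lower share of Pfkl forces a higher share elsewhere. The level of Pfkp itself did not pass (log2 fold change -0.03, edgeR adjusted p = 0.853). No p-value is given for shares, which were computed from genes that had been listed with earlier results known.

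The other 3 enzymes from glucose to the triose phosphates did not pass the test. Gpi1, glucose phosphate isomerase, had 141 to 153 CPM in temperature-responsive and 164 to 184 CPM in non-responsive samples, without overlap, and differed by -0.21 on the log2 scale (edgeR adjusted p = 0.0985). It shares 19.3% of its windows with other genes and 11.5% of its exonic bases with Gm26762 on the opposite strand. Aldoa had 325 to 369 CPM and 294 to 344 CPM, and Tpi1, triose phosphate isomerase, 189 to 241 CPM and 203 to 225 CPM. For both, the groups overlapped.

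From triose phosphates to pyruvate, Pgk1 was higher and the abundant enzymes Eno2 and Pkm did not pass the test. Pgk1 makes the first ATP of glycolysis and lies on chromosome X from 106187100 to 106203699. Its level was 29.3, 31.2, 26.5 and 25.3 CPM in TR1 to TR4 and 23.1, 14.7 and 16.2 CPM in NR1 to NR3. The groups did not overlap, but NR1 came close to TR4. From the 58 to 81 counts it had, edgeR estimated a log2 fold change of 0.65 (SE 0.199, edgeR adjusted p = 0.0152). It did not pass without TR2 (0.61, adjusted p = 0.0522), NR2 (0.53, adjusted p = 0.0870) or NR3 (0.59, adjusted p = 0.0614, edgeR in each case). Eno2, the neuronal enolase, had 319 to 412 CPM in temperature-responsive and 361 to 399 CPM in non-responsive samples (log2 fold change -0.07, SE 0.0994). Because Eno1 had no counts, Eno2 held all the counts of this pair, and no ratio could be compared. Pkm, pyruvate kinase, had 194 to 241 CPM and 190 to 205 CPM (log2 fold change 0.11, SE 0.0976). Gapdh (2.69 to 8.82 CPM and 5.09 to 9.22 CPM) and Pgam1 (4.51 to 6.20 CPM in non-responsive samples, within the range of the temperature-responsive samples) overlapped between the groups. Their log2 fold changes of -0.21 and 0.01 had standard errors of 0.377 and 0.383, the highest among the 33 genes, and small differences were not detectable at this depth.

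The lactate dehydrogenase subunits differed little. Ldha, the subunit that favors lactate formation, had 159, 165, 147 and 162 CPM in TR1 to TR4 and 171, 152 and 163 CPM in NR1 to NR3, and Ldhb, the subunit that favors pyruvate formation, had 253, 208, 216 and 201 CPM and 237, 195 and 204 CPM. Both overlapped between the groups. The log2 fold changes were -0.03 (SE 0.0939) for Ldha and 0.05 (SE 0.102) for Ldhb, and both changed sign under some of the other settings. Ldha held 25.6 ± 2.24% (SD, n = 4) and 26.7 ± 1.06% (SD, n = 3) of their summed counts per kilobase, a difference of -1.08 percentage points that was within the spread between samples.

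Of the 4 subunits of the pyruvate dehydrogenase complex listed here, those of its core and of its last step were higher in temperature-responsive samples. Those of its first step did not pass. Dlat, the acetyltransferase that forms the core, lies on chromosome 9 from 50634633 to 50659780. It had 313, 312, 246 and 264 CPM in TR1 to TR4 and 226, 222 and 206 CPM in NR1 to NR3. All temperature-responsive samples lay above all non-responsive samples, with TR1 and TR2 the highest. Dlat thus rose by 0.38 on the log2 scale (SE 0.101, edgeR adjusted p = 0.00704). Dld, the dihydrolipoamide dehydrogenase that this complex shares with the 2-oxoglutarate dehydrogenase complex, lies on chromosome 12 from 31331277 to 31351453. It had 305, 274, 219 and 222 CPM in TR1 to TR4 and 206, 213 and 195 CPM in NR1 to NR3, without overlap, although TR3 and TR4 were close to NR2. Its log2 fold change of 0.31 (SE 0.109, edgeR adjusted p = 0.0318) did not pass without TR1 (0.21, adjusted p = 0.118), TR2 (0.29, adjusted p = 0.0986), NR2 (0.35, adjusted p = 0.0623) or NR3 (0.28, adjusted p = 0.128, edgeR in each case). Pdha1 (148 to 165 CPM and 145 to 167 CPM) and Pdhb (163 to 178 CPM and 146 to 158 CPM), the subunits that decarboxylate pyruvate, had log2 fold changes of 0.02 (edgeR adjusted p = 0.914) and 0.15 (edgeR adjusted p = 0.241), and the levels of Pdhb did not overlap between the groups. Pcx, pyruvate carboxylase, which in brain belongs mainly to astrocytes, had 38.8 to 62.2 CPM in temperature-responsive and 58.1 to 60.6 CPM in non-responsive samples and did not pass (log2 fold change -0.21, edgeR adjusted p = 0.292).

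In the first part of the citrate cycle, Idh2 and Idh3g were lower in temperature-responsive samples. Idh2 encodes the NADP-dependent isocitrate dehydrogenase of mitochondria, which supplies NADPH, and lies on chromosome 7 from 80094846 to 80115392. It had 39.0, 34.5, 38.1 and 29.2 CPM in TR1 to TR4 and 54.8, 53.1 and 52.4 CPM in NR1 to NR3, a wide gap, and the log2 value differed by -0.60 (SE 0.145, edgeR adjusted p = 0.00328). Idh3g encodes the gamma subunit of the NAD-dependent isocitrate dehydrogenase that drives the cycle, and lies on chromosome X from 73778963 to 73786897. It had 192, 159, 195 and 197 CPM in TR1 to TR4 and 241, 255 and 257 CPM in NR1 to NR3, again without overlap. It differed by -0.43 on the log2 scale (SE 0.0959, edgeR adjusted p = 0.00194). Its catalytic partner Idh3a had 326 to 418 CPM and 322 to 362 CPM (log2 fold change 0.08, edgeR adjusted p = 0.563), and the beta subunit Idh3b 231 to 285 CPM and 282 to 299 CPM (-0.22, edgeR adjusted p = 0.0894). For Idh3b only TR1 reached into the range of the non-responsive samples, and without it the gene passed (-0.29, edgeR adjusted p = 0.0213). The subunits of this enzyme thus did not keep the same proportions. Idh3a held 30.8 to 34.8% of their summed counts per kilobase in temperature-responsive and 26.3 to 29.0% in non-responsive samples, and Idh3g 30.1 to 35.0% and 36.3 to 39.5%. The share of Idh3b overlapped on this scale (a difference of -0.329 percentage points between the means), but was lower in every temperature-responsive sample with counts (-1.53) or with the length of the longest transcript (-1.18). These shares were chosen after their values were seen. They make up a whole, so that a lower share of Idh3g forces a higher share elsewhere. Cs, citrate synthase, did not pass (181 to 225 CPM and 223 to 238 CPM, log2 fold change -0.18, edgeR adjusted p = 0.166).

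The 2-oxoglutarate dehydrogenase complex, the next step, had both of its own subunits lower, at the edge of the threshold. Ogdh, which decarboxylates 2-oxoglutarate, lies on chromosome 11 from 6291633 to 6356642, and had 217, 181, 193 and 188 CPM in TR1 to TR4 and 248, 230 and 225 CPM in NR1 to NR3. Dlst, the core of the complex, lies on chromosome 12 from 85110833 to 85134845, and had 111, 97.4, 95.1 and 89.6 CPM in TR1 to TR4 and 122, 120 and 119 CPM in NR1 to NR3. Neither gene overlapped between the groups. The log2 fold changes were -0.26 (SE 0.0946, edgeR adjusted p = 0.0367) for Ogdh and -0.30 (SE 0.103, edgeR adjusted p = 0.0322) for Dlst. Without any 1 of the samples TR2 to TR4 or NR1 to NR3, neither passed. The log2 fold change then lay at -0.23, -0.26, -0.24, -0.22, -0.28 and -0.29 for Ogdh and at -0.29, -0.28, -0.25, -0.28, -0.29 and -0.31 for Dlst. In DESeq2, Dlst also missed the threshold (adjusted p = 0.0604). Dld, the third component of this complex, rose, as given above for the pyruvate dehydrogenase complex.

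Sucla2 rose, and its partners did not pass. Sucla2 encodes the subunit of succinyl-CoA synthetase that makes ATP and lies on chromosome 14 from 73525319 to 73596142. It had 522, 443, 415 and 403 CPM in TR1 to TR4 and 355, 344 and 341 CPM in NR1 to NR3. The groups were well apart, and TR1 was the highest. Sucla2 rose by 0.36 on the log2 scale (SE 0.101, edgeR adjusted p = 0.00934). Suclg2, the alternative subunit that makes GTP, had 15.6 to 20.4 CPM and 11.6 to 14.7 CPM, without overlap, and its difference of 0.42 on the log2 scale did not pass (SE 0.220, edgeR adjusted p = 0.155). Sucla2 held 96.4 to 97.0% of the counts per kilobase of these alternative subunits in temperature-responsive and 96.4 to 97.1% in non-responsive samples. Suclg1, the subunit common to both forms, had 197 to 239 CPM and 236 to 243 CPM (log2 fold change -0.15, edgeR adjusted p = 0.218).

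At the end of the cycle, fumarase was lower and cytosolic malate dehydrogenase higher. Fh1, fumarate hydratase, lies on chromosome 1 from 175600374 to 175625635, and had 115, 85.6, 91.5 and 92.1 CPM in TR1 to TR4 and 116, 148 and 125 CPM in NR1 to NR3. The groups were parted only by the small gap between TR1 and NR1. Fh1 differed by -0.44 on the log2 scale (SE 0.115, edgeR adjusted p = 0.00602), and -0.33 without NR2, where it did not pass (edgeR adjusted p = 0.0705). Mdh1, which in the cytosol feeds the malate-aspartate shuttle with reducing equivalents from glycolysis, lies on chromosome 11 from 21556787 to 21572367. It had 842, 768, 672 and 640 CPM in TR1 to TR4 and 638, 465 and 487 CPM in NR1 to NR3, so that TR4 and NR1 were nearly level. Mdh1 rose by 0.46 on the log2 scale (SE 0.119, edgeR adjusted p = 0.00540), and 0.38 without NR2, where it did not pass (edgeR adjusted p = 0.0558). The mitochondrial enzyme Mdh2 had 274 to 323 CPM and 298 to 321 CPM (log2 fold change -0.09, edgeR adjusted p = 0.506). Of the summed counts per kilobase of both malate dehydrogenases, Mdh1 held 76.3 to 78.3% in temperature-responsive and 68.2 to 73.4% in non-responsive samples, a share also chosen after its values were seen.

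**Figure D4:**
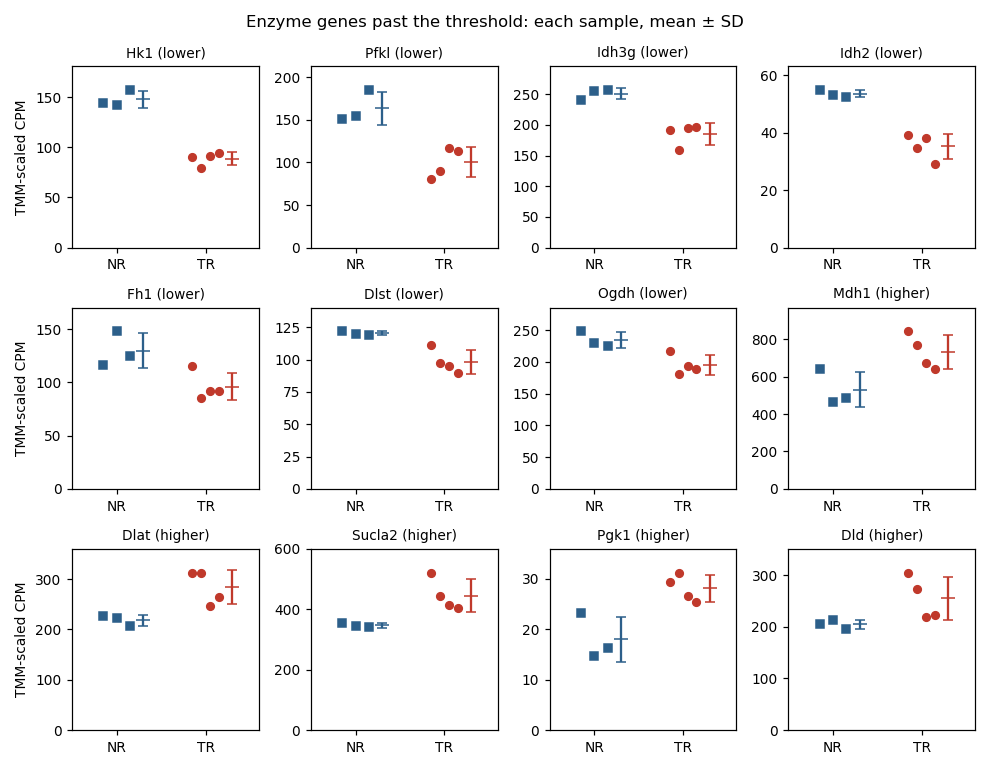
TMM-scaled CPM of the 12 enzyme genes that passed the threshold, in each of the 3 non-responsive (NR, squares) and 4 temperature-responsive (TR, circles) samples, with the mean and SD beside them; every axis starts at 0. The gap between the groups is wide for Hk1 and Idh2 and narrow for Fh1 and Mdh1.

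**Figure D5:**
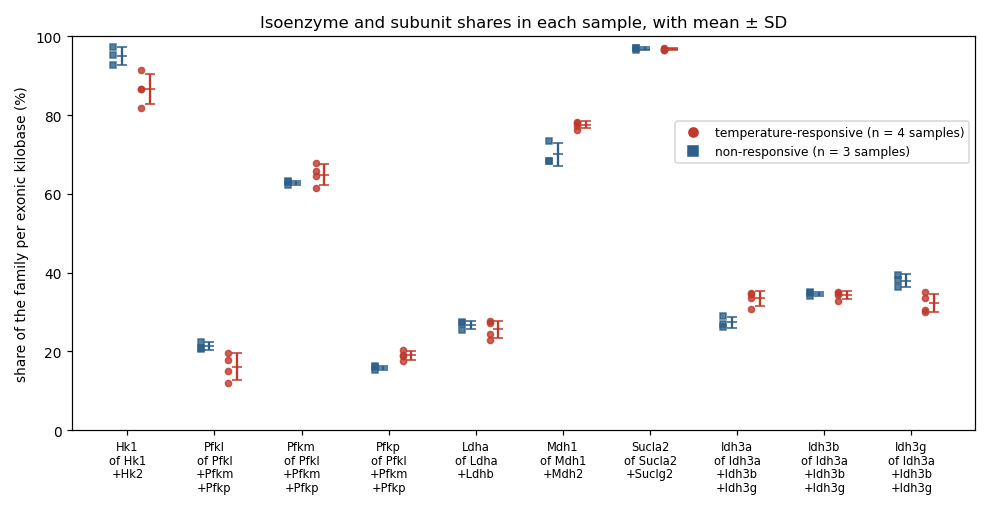
Share (%) of a family's summed counts per exonic kilobase held by each isoenzyme or subunit, in each sample, with mean and SD (squares, 3 non-responsive samples; circles, 4 temperature-responsive samples). Hk1, Pfkl and Idh3g held less, and Pfkp, Mdh1 and Idh3a more, in every temperature-responsive sample than in every non-responsive sample. Pfkm, Ldha, Sucla2 and, on this scale, Idh3b overlapped. The shares of a family make up a whole, so that a lower share forces a higher share elsewhere.

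The direction of the differences went in part with the base composition of the transcripts. The 5 genes that rose had a GC content of 40.6 to 49.7% (median 45.7%). The 7 that fell had one of 47.7 to 57.1% (median 52.5%), which overlapped. The median was 51.9% for the enzyme genes that did not pass, near that of the falls, and 49.8% for all genes tested. Over 13745 genes tested, the log2 fold change and GC content had a Spearman's rho of -0.342, genes not being independent replicates. With an offset for GC content in edgeR, 11 enzyme genes passed, 3 higher and 8 lower, where 24.6% of all genes passed, 9.24% higher and 15.4% lower. Dlat (0.28, edgeR adjusted p = 0.0409), Mdh1 and Pgk1 remained among the rises, whereas Dld (0.05, edgeR adjusted p = 0.769) and Sucla2 (0.17, edgeR adjusted p = 0.227) did not pass. Among the falls, Ogdh (-0.25, edgeR adjusted p = 0.0631) did not pass, and Idh3b (-0.31, edgeR adjusted p = 0.0202) and Suclg1 (-0.30, edgeR adjusted p = 0.0220) passed. The falls of Hk1 (-0.65), Pfkl (-0.60), Idh2 (-0.54) and Idh3g (-0.46) stayed close to the values above.

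Further lists held other genes of the same pathways. Of 65 such genes tested, 22 passed (33.8%, against 30.03% of all genes tested), 8 higher and 14 lower, a share near that of all genes. None passed with the count of detected genes as a covariate, a fit that could not part this count from the group. Among 16 other isoenzymes and regulators of glycolysis, 1 rose and 2 fell (18.8%). Bpgm, which makes 2,3-bisphosphoglycerate, fell from 131 ± 5.27 CPM (SD, n = 3) to 89.8 ± 3.90 CPM (SD, n = 4), a difference of -0.55 on the log2 scale (SE 0.0998, edgeR adjusted p = 0.000460). Pfkfb2, which makes the activator fructose 2,6-bisphosphate of phosphofructokinase, rose by 0.42 (edgeR adjusted p = 0.0110). Of 11 transport genes, 2 rose and 2 fell (36.4%). Mpc2, a subunit of the mitochondrial pyruvate carrier, rose by 0.36 (edgeR adjusted p = 0.0101) and Slc16a1, the monocarboxylate transporter 1, by 0.42 (edgeR adjusted p = 0.0130), both on the log2 scale. With the GC content offset, Pfkfb2 (adjusted p = 0.0922), Mpc2 (adjusted p = 0.236) and Slc16a1 (adjusted p = 0.209, edgeR in each case) did not pass. The neuronal glucose transporter Slc2a3 fell to 118 ± 1.87 CPM (SD, n = 4) from 142 ± 13.7 CPM (SD, n = 3), a log2 difference of -0.27 (edgeR adjusted p = 0.0441) that passed in none of the 7 fits that left out a sample. The lowest adjusted p among the transport genes that fell was that of Slc2a8 (-0.69, edgeR adjusted p = 0.0236), whose groups overlapped. It did not pass without TR1 (-0.62, adjusted p = 0.0598), TR2 (-0.63, adjusted p = 0.0770) or NR3 (-0.31, adjusted p = 0.339), nor with the GC content offset (adjusted p = 0.0755, edgeR in each case). Mpc2 also missed the threshold without NR2 or NR3 and Slc16a1 without TR1.

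Among 8 genes that regulate or complete the pyruvate dehydrogenase complex, Pdp1 rose and Pdk2 fell. Pdp1, the phosphatase that switches the complex on, had 332, 324, 261 and 276 CPM in TR1 to TR4 and 195, 196 and 164 CPM in NR1 to NR3. Every temperature-responsive sample was far above the non-responsive samples, and Pdp1 rose by 0.69 on the log2 scale (SE 0.106, edgeR adjusted p = 0.000150). Pdk2, a kinase that switches the complex off, had 56.2, 24.8, 55.2 and 56.9 CPM in TR1 to TR4 and 77.3, 85.4 and 102 CPM in NR1 to NR3. TR2 was the lowest of all, and Pdk2 differed by -0.85 on the log2 scale (SE 0.188, edgeR adjusted p = 0.00312). Both passed in all 7 fits with a sample left out. With the GC content offset both also passed, but the rise of Pdp1 was smaller, at 0.38 (edgeR adjusted p = 0.00580). Pdk2 was then at -0.76 (edgeR adjusted p = 0.00861). The kinases Pdk1, Pdk3 and Pdk4 did not pass. Of 14 further genes tested in and around the citrate cycle, 3 rose and 3 fell (42.9%, against 30.03% of all genes tested). Sdhc, a membrane anchor of succinate dehydrogenase, had 108 ± 16.3 CPM (SD, n = 4) against 158 ± 8.01 CPM (SD, n = 3), or -0.55 on the log2 scale (edgeR adjusted p = 0.000855), whereas Sdha, Sdhb and Sdhd of the same complex did not pass. Idh1, the cytosolic NADP-dependent isocitrate dehydrogenase, rose by 0.44 (edgeR adjusted p = 0.00505) to 131 ± 5.42 CPM (SD, n = 4) from 96.8 ± 16.1 CPM (SD, n = 3), the opposite direction to its mitochondrial counterpart Idh2. It did not pass with the GC content offset (edgeR adjusted p = 0.0747) or without NR3 (0.32, edgeR adjusted p = 0.0523).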

How the data were processed

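Patch-seq libraries (SMART-seq V4, Nextera XT) of 7 samples were analyzed. The authors deposited counts of reads for each gene symbol, not normalized, made by htseq-count from STAR alignments (mm10) after RmDup had dropped duplicates. Annotation and strandedness are not given in the sources used here. Removing duplicates without molecular identifiers can lower the counts of abundant genes. Genes that reached 10 counts in 3 samples or more were tested (edgeR 4.0.16, TMM, robust quasi-likelihood fit, two-sided, R 4.3.3); standard errors came from the log2 fold change and F. DESeq2 1.42.0, limma 3.58.1 and GC content offsets (mgcv 1.9.3) were alternatives. Exonic lengths, GC content and windows came from GENCODE M21, in which 94.5% of symbols were found; promoters came from RefSeq GRCm38.p6. On simulated data, 82.5% of 200 genes changed by 1 on the log2 scale were called among 14578 tested, none in the wrong direction, and 8.84% of calls were false. The enzymes and lists were chosen with earlier results of these data known. All listed enzymes were named, with full values for the 12 that passed and for isoenzymes, and from each further list the called gene with the smallest adjusted p in each direction, or called genes whose groups did not overlap. Pdk1, Pdk3, Pdk4, Sdha, Sdhb, Sdhd and, below, Rpe, Rpia and Pgd were named to complete their complex or list. Between samples of a group, chi-square over 13602 genes was 1.96 to 5.10 times its degrees of freedom, and no sample was counted as a copy of another.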

Additional observations from a re-analysis of the deposited data

Results flagged for a closer look

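A single sample stood apart from the other 3 temperature-responsive samples in 1 of 43 measures, where chance gives about 1 in 20. Idh3g had 159 CPM in TR2 and 192 to 197 CPM in the other temperature-responsive samples, a gap of 0.864 of the whole range. All 4 values lay below those of the non-responsive samples. Groups of 3 samples and the genes of the further lists were not examined in this way. Among the latter, Pdk2 had 24.8 CPM in TR2 and 55.2 to 56.9 CPM in the other temperature-responsive samples.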

How the results depend on the processing

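Of the values of the 33 enzyme genes under other settings, 517 kept direction and side of the threshold, 49 lost it, 20 gained it and 40 changed sign. With the count of detected genes as covariate, 1 gene in all (2062 at an unadjusted p under 0.05, edgeR), 0 of the enzymes and 0 of the further genes passed. The count of detected genes did not overlap between the groups, and this fit could not part the 2. The count over all genes ranged from 2620 (without NR3) to 4583 with samples left out, that of the enzymes from 6 (without NR2) to 14, that of the further genes from 12 (without NR3; 14 without TR2) to 24, and the median log2 fold change of the enzymes from -0.12 to -0.00. That median was -0.13 with all genes of 1 count or more tested, where the median of all genes was -0.08. Non-overlapping enzymes ranged from 16 to 23. The share of all genes without overlap was not computed under these settings. Ranges of fewer samples overlap less readily for any gene, so this range is not read as particular to the enzymes. With samples left out, the difference in share ranged from -9.99 to -6.85 percentage points for Hk1, -6.40 to -3.82 for Pfkl, 1.13 to 3.23 for Pfkm, 2.68 to 3.58 for Pfkp and -1.74 to -0.209 for Ldha. That of Hk1 was -5.02 with the longest transcript in place of the exonic length (chosen after seeing the data) in place of -8.43, and that of Pfkp 6.31 with counts in place of 3.12. The cause was not tested for any of these.

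With the replicate number as a block, 10 enzymes (5 higher, 5 lower) and 4124 genes passed, and with the block and GC content offset 11 enzymes (losing Dld, Dlst, Idh2, Ogdh and Sucla2 and gaining Aldoa, Pkm, Idh3b and Suclg1), 14 of the further genes and 2945 genes. Same-numbered samples share only a number, and their deviations from the group means had correlations of -0.128, -0.0618 and 0.0316.

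The signs of small differences were not stable. With the covariate, the log2 fold change was -0.24 for Hk2, 0.13 for Pfkp, 0.029 for Tpi1, 0.27 for Gapdh, 0.016 for Eno2 and -0.066 for Pdha1. Upper quartile scaling gave 0.038 for Pfkp, 0.029 for Tpi1 and 0.034 for Ldha, and downsampling 0.0082 for Pfkp and 0.015 for Tpi1. Library size only gave -0.050 for Pgam1, -0.0073 for Ldhb and -0.043 for Pdha1, and testing all genes of 1 count or more gave -0.083, -0.037 and -0.074 for these and -0.0065 for Idh3a. The GC content offset gave -0.12 for Pdha1 and -0.020 for Idh3a, the block 0.0048 for Tpi1, and both together 0.053 for Tpi1, 0.0071 for Eno2 and -0.12 for Pdha1. Leaving out samples gave -0.11 to 0.0095 for Pfkp, -0.12 to 0.017 for Tpi1, -0.44 to 0.073 for Gapdh, -0.12 to 0.15 for Pgam1, -0.074 to 0.0066 for Ldha, -0.025 to 0.14 for Ldhb and -0.024 to 0.076 for Pdha1. Standard errors near 0.38 on the log2 scale for Gapdh, Pgam1 and Hk2 show what their few counts limit.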

Other observations

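The pentose phosphate pathway branches from glycolysis and makes NADPH and ribose. Of its 7 listed genes, 4 were lower in temperature-responsive samples and none higher. Of all genes tested, 14.9% were lower and 30.03% passed in either direction. None of the 7 passed with the count of detected genes as a covariate, a fit that could not part that count from the group. Taldo1, transaldolase, had 118, 107, 123 and 113 CPM in TR1 to TR4 and 160, 157 and 158 CPM in NR1 to NR3. The groups were wide apart, by -0.45 on the log2 scale (SE 0.0954, edgeR adjusted p = 0.00130). On the same scale, Tkt, transketolase, differed by -0.44 (edgeR adjusted p = 0.00357) and Pgls, 6-phosphogluconolactonase, by -0.49 (edgeR adjusted p = 0.00820). These 3 genes passed in each of the 7 fits that left out a sample. G6pdx, the first enzyme of the pathway, differed by -0.44 (edgeR adjusted p = 0.0224) and passed in 3 of them, missing the threshold without TR2, TR3, TR4 or NR2 (-0.42 to -0.38). None of these groups overlapped, and all 4 genes passed with the GC content offset. Pgd, Rpe and Rpia did not pass.

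Of 9 genes of the malate-aspartate and glycerol phosphate shuttles and of glutamate exchange, 1 rose and 2 fell. This is 33.3%, against 30.03% of all genes tested. Gpd1, the cytosolic glycerol phosphate dehydrogenase, fell to 26.8 ± 4.25 CPM (SD, n = 4) from 39.8 ± 2.10 CPM (SD, n = 3), which is -0.56 on the log2 scale (edgeR adjusted p = 0.0115). Got2, the mitochondrial aspartate aminotransferase, differed by -0.40 (edgeR adjusted p = 0.0301) and passed in 1 of the 7 fits that left out a sample, that without TR1. It passed neither with the GC content offset (edgeR adjusted p = 0.0693) nor in DESeq2 (adjusted p = 0.0518). Glud1, glutamate dehydrogenase, rose by 0.27 (edgeR adjusted p = 0.0378), which passed in 2 of these fits, without TR4 and without NR1, and not with the GC content offset (edgeR adjusted p = 0.125).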
